A study of Homo sapiens with 6 samples.

Results

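The pentose phosphate pathway was followed in U251 cells through the mRNA of 7 enzymes, namely PGLS, PGD, RPIA, RPE, TKT, TALDO1 and H6PD. They were picked by name from a table of 23002 genes because PGD was much lower after TRAF2 knockdown than the other steps were. All 7 had enough expression to pass a filter on low values that kept 11870 genes. The contrast between the groups therefore chose the set, and its values in the 7 genes are given as a description with no test.

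U251 is an established human glioblastoma line. Bulk RNA was sequenced from 3 samples carrying a control hairpin (sh-NC) and from 3 samples carrying a hairpin against TRAF2 (sh-TRAF2). TRAF2 is an adaptor protein of tumour necrosis factor receptor signalling. The study made its stable lines by lentiviral transduction and puromycin selection. The vector of the TRAF2 hairpins drives the hairpin from a U6 promoter and also makes EGFP. That of the control is not given in the sources used here. The design calls the samples biological replicates, and it is not stated whether the lines were single clones. Of 2 TRAF2 hairpins made for the study, the sources used here do not say which was sequenced, and a difference between the groups cannot be told apart from an effect of that hairpin on other transcripts.

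The pathway draws glucose 6-phosphate away from glycolysis. Its oxidative branch makes NADPH, the reducing power for lipid synthesis and for repair of oxidative damage, and ends with the release of CO2 by PGD. Its non-oxidative branch moves carbon reversibly between ribose 5-phosphate, the sugar of nucleotides, and intermediates of glycolysis. The cytosolic enzyme of the first step was not analysed here.

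Levels are FPKM, fragments scaled to transcript length and to the size of the library, so that the unit lets genes be compared with each other. The values could be turned back into whole reads, which gave 33999558 to 36823562 reads per library. Between samples of 1 group the log2 values correlated at 0.993 to 0.995, and between groups at 0.979 to 0.985. TRAF2 itself stood at 15.1, 18.4 and 15.3 FPKM in the sh-NC samples and at 3.26, 3.22 and 3.33 FPKM in the sh-TRAF2 samples. It fell by 2.27 on the log2 scale (SE 0.079, limma adjusted p = 1.16e-06), or by 79.9%. An exact two-sided permutation test gave p = 0.1, the smallest that 3 against 3 samples allow. Among 8 genes usually found in glioblastoma lines, 7 passed the filter and S100B did not, with 0 to 0.0228 FPKM. GFAP was low, at means of 0.467 FPKM in sh-NC and 1.18 FPKM in sh-TRAF2, while VIM stood at 1242 and 1582 FPKM. Of 9 measured markers of other cell types, CD68 alone passed the filter, at means of 16.1 FPKM in sh-NC and 15.9 FPKM in sh-TRAF2. SNAP25 was the highest of the rest at up to 0.703 FPKM.

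PGLS, PGD, TKT and TALDO1 hold bases from the same stretch of the target of hairpin sh-TRAF2#1, and the windows are shown because the members that hold them had very different values. Capitals mark bases 10 to 16 of the 21-base target, ATTCCAC, a heptamer that was singled out in these same libraries and is no independent evidence. In TALDO1 the capitals mark bases 11 to 21 of the target. Each window holds 29 bases of the mRNA, 5′ to 3′, read from GENCODE 29 transcripts on GRCh38. The build used for the deposited values is not given in the sources used here.
sh-TRAF2#1: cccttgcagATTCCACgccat
sh-TRAF2#2: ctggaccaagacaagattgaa
TRAF2: gtcccttgcagATTCCACgccatcggctg
PGD: caccctccacgATTCCACagaccaggaca
PGLS: cttcgagaagcATTCCACtttgtagctgg
TKT: ggacaccaaaaATTCCACcttctcggaga
TALDO1: acgggcgacTTCCACGCCATcgacgagta

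The PGD window lies in the 3′UTR, in exon 13 of 13, at chr1:10419765-10419793 on the plus strand, and its heptamer starts 27 bases after the stop codon. The PGLS window is coding and in exon 5 of 5, at chr19:17521057-17521085 on the plus strand. The TKT window is coding and in exon 8 of 14, at chr3:53230516-53230544 on the minus strand. The target itself sits in coding exon 7 of 11 of TRAF2, at chr9:136916577-136916605 on the plus strand. The TALDO1 window is coding, begins in exon 1 of 8 and spans an intron, with its ends at chr11:747563-755891 on the plus strand. RPIA, RPE and H6PD hold no ATTCCAC in their coding sequence or 3′UTR. The heptamer was present there in 18.0% of the 10822 tested genes that had a transcript.

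In the oxidative branch, PGD and PGLS were both lower in sh-TRAF2, and PGD stood much further from its control level. PGD, which oxidizes 6-phosphogluconate to ribulose 5-phosphate and yields NADPH, was at 105, 102 and 103 FPKM in the sh-NC samples and at 26.2, 26.3 and 25.9 FPKM in the sh-TRAF2 samples. These values rest on 9250, 9001 and 9499 reads in sh-NC and on 2256, 2231 and 2249 reads in sh-TRAF2. The groups did not overlap, and the values within each group lay close together. The mean was 103 ± 1.65 FPKM (SD, n = 3) in sh-NC and 26.1 ± 0.194 FPKM (SD, n = 3) in sh-TRAF2, which is 74.7% lower, or a 3.95-fold difference. On the log2 scale the difference was −1.98 (SE 0.033). Counted from the lowest, PGD ranked 4 among the 11870 genes, and TRAF2 ranked 2. Within a group the spread of PGD was small, with a coefficient of variation of 1.60% in sh-NC and 0.741% in sh-TRAF2, against 1.04% and 2.11% for counting error alone. In bulk RNA, fewer cells with a transcript and less of it per cell cannot be told apart.

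PGLS, the lactonase that makes the substrate of PGD, was at 42.7, 49.8 and 45.4 FPKM in sh-NC and at 27.3, 30.8 and 27.5 FPKM in sh-TRAF2. The groups stayed apart, and the 3 knockdown samples were the lower ones. The means were 46.0 ± 3.55 and 28.6 ± 1.96 FPKM (SD, n = 3 each), a log2 difference of −0.68 (SE 0.068). H6PD carries out the opening steps of the same chemistry inside the endoplasmic reticulum. It was at 3.42, 3.51 and 3.35 FPKM in sh-NC and at 2.48, 2.95 and 2.87 FPKM in sh-TRAF2, the lowest level of the 7 genes in both groups. Its groups did not overlap, and the log2 difference was −0.30 (SE 0.083).

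In the non-oxidative branch, TKT was lower and the other 3 genes stayed near their control levels. TKT, the transketolase that passes 2-carbon units between sugars, was at 291, 287 and 308 FPKM in sh-NC and at 156, 164 and 175 FPKM in sh-TRAF2. The groups did not overlap, with means of 295 ± 10.9 and 165 ± 9.71 FPKM (SD, n = 3 each) and a log2 difference of −0.84 (SE 0.048). TALDO1, the transaldolase that works in sequence with transketolase, was at 124, 121 and 127 FPKM in sh-NC and at 123, 126 and 125 FPKM in sh-TRAF2. Its groups overlapped, and its log2 difference was 0.01 (SE 0.032), or −0.06 after quantile normalization.

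RPIA, which turns ribulose 5-phosphate into ribose 5-phosphate, was at 15.3, 17.2 and 15.7 FPKM in sh-NC and at 16.9, 18.6 and 17.7 FPKM in sh-TRAF2. The groups overlapped, with a log2 difference of 0.14 (SE 0.059). RPE, the epimerase that turns the same ribulose 5-phosphate into xylulose 5-phosphate, was at 21.9, 23.4 and 23.7 FPKM in sh-NC and at 26.7, 23.9 and 25.2 FPKM in sh-TRAF2. Its groups did not overlap but nearly touched, and the log2 difference was 0.13 (SE 0.053). RPE reads are uncertain in 2 ways. In GENCODE 29 its exons share 837 bases, or 23.8%, with KANSL1L on the opposite strand, and 6 processed pseudogenes carry its name. Whether reads were counted by strand is not given in the sources used here. PGLS shares 261 exon bases, or 9.17%, with the lincRNA AC010618.3 on the opposite strand, and PGD and RPIA have 1 named processed pseudogene each.

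**Figure D1:**
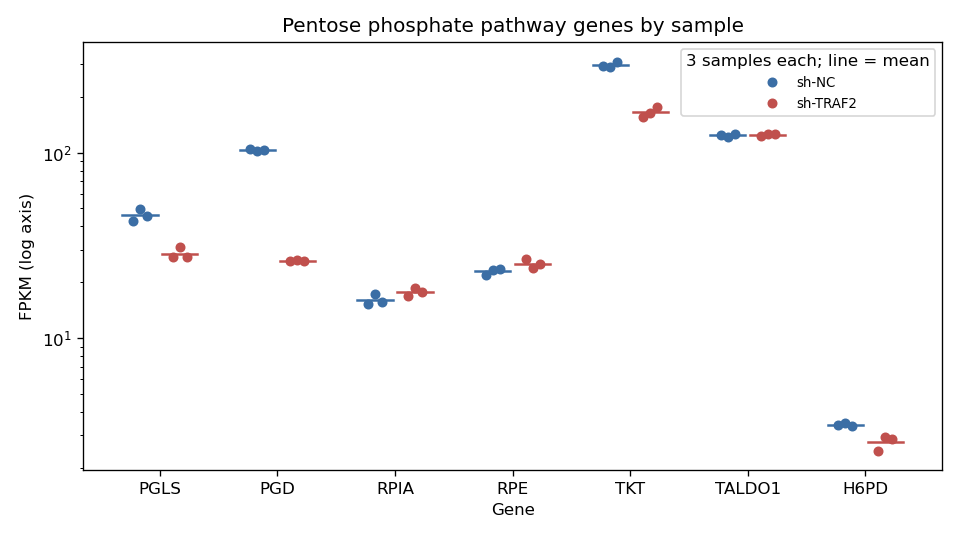
FPKM on a log axis for the 7 pathway genes, 1 point per sample and a line at the mean of 3 samples, sh-NC in blue and sh-TRAF2 in red. PGD sits near 103 FPKM in sh-NC and near 26.1 FPKM in sh-TRAF2, whereas the TALDO1 points of both groups lie between 121 and 127 FPKM.

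With the threshold of an adjusted p under 0.05 and an absolute log2 difference of at least 1, PGD was the only member called, where 0.733% of all tested genes were called lower, 0.986% higher and 1.72% in either direction. With the adjusted p alone, 4 of the 7 members were lower and 0 higher, where 20.9% of tested genes were lower and 23.7% higher, 44.6% in all. The count of members was 3 with no filter on low values and without sh-NC replicate 1, where H6PD missed the threshold. It was 5 with a replicate block, without sh-NC replicate 2 and without sh-TRAF2 replicate 2, where RPIA or RPE also passed. In 5 of the 7 members the sample values of both groups were separate, against 55.5% of tested genes. In 4 of the 7 they were separate with sh-TRAF2 lower, against 26.5% of tested genes. The median log2 difference was −0.30 over the 7 members and 0.02 over all tested genes. These counts come from the contrast that chose the genes, so nothing is read from them.

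**Figure D2:**
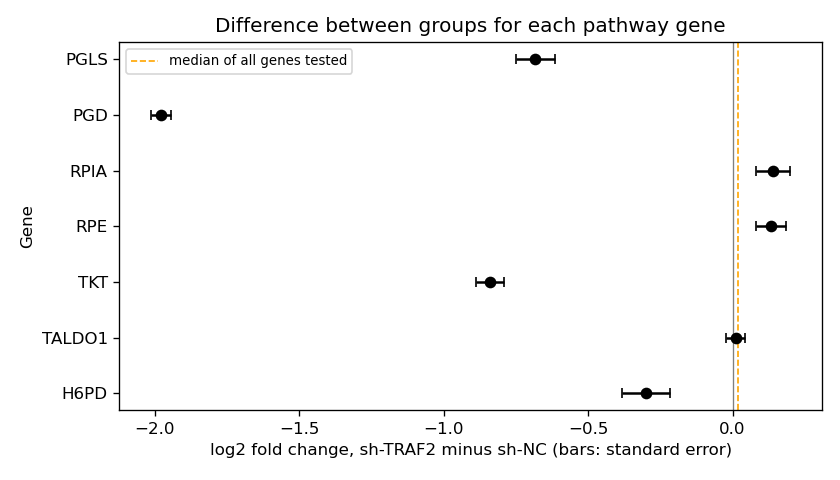
The log2 difference, sh-TRAF2 minus sh-NC, for each pathway gene, with bars for 1 standard error and a dashed line at the median of all tested genes, 0.02. PGD at −1.98 lies far to the left of TKT at −0.84 and PGLS at −0.68, and RPIA, RPE and TALDO1 lie between 0.01 and 0.14.

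The order of the levels changed in a single place. In sh-NC it ran TKT, TALDO1, PGD, PGLS, RPE, RPIA and H6PD from high to low, and no neighbours in that order overlapped. In sh-TRAF2, PGD came after PGLS, and PGD and RPE overlapped, at 25.9 to 26.3 and 23.9 to 26.7 FPKM. The summed level of the 7 genes was 611 ± 13.0 FPKM in sh-NC and 390 ± 10.9 FPKM in sh-TRAF2 (SD, n = 3 each). PGD made up 16.9 ± 0.458% of that sum in sh-NC and 6.70 ± 0.221% in sh-TRAF2. TALDO1 made up 20.2 ± 0.251% and 31.9 ± 0.568%, at a nearly equal level, because shares of a smaller sum are larger. PGLS held 7.53% and 7.32%. The ratio of PGD to TALDO1 was 0.836 ± 0.0172 in sh-NC and 0.210 ± 0.0035 in sh-TRAF2, and that of PGD to PGLS was 2.26 and 0.918.

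**Figure D3:**
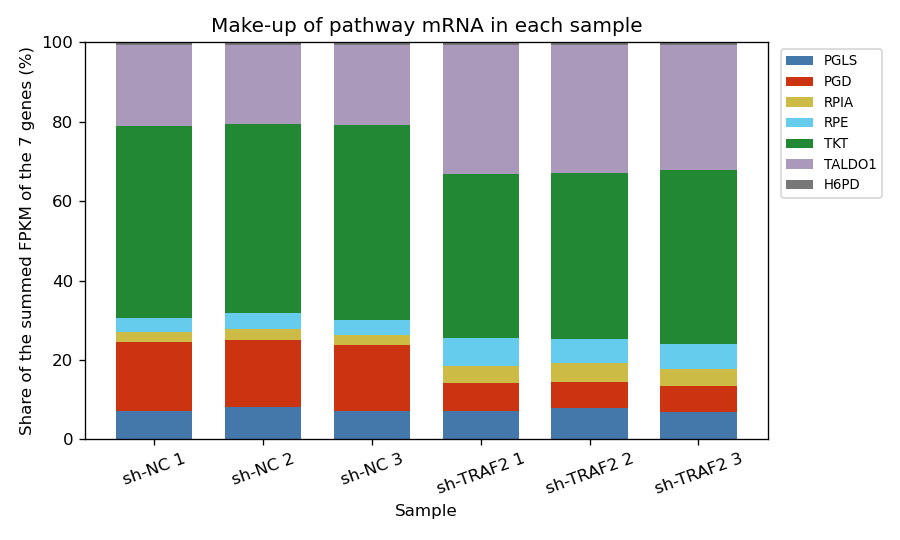
Share in percent of the summed FPKM of the 7 pathway genes, stacked for each of the 6 samples. The PGD band narrows from a mean of 16.9% in the sh-NC samples to 6.70% in the sh-TRAF2 samples, the TALDO1 band widens from 20.2% to 31.9%, and the bars of a group look alike.

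The 3 members with ATTCCAC were also the 3 with the lowest differences, at −1.98 for PGD, −0.84 for TKT and −0.68 for PGLS, and the 4 without it ran from −0.30 to 0.14. The median log2 difference was −0.09 over all tested genes that carry it in coding sequence or 3′UTR and 0.03 over the others. TALDO1 holds the longest run of the sh-TRAF2#1 target among the members, 11 bases, and its log2 difference was 0.01. A run of at least 11 bases occurred in 0.943% of the transcripts examined, and one of at least 8 bases, as in PGD, in 46.9%. With sh-TRAF2#2 the members shared runs of 7 or 8 bases, and at least 8 occurred in 56.6% of transcripts. Of 91 genes on the lists around the pathway that had a transcript, 12 carried ATTCCAC and had a median log2 difference of −0.34, with 10 below 0, and the other 79 had a median of −0.08, with 47 below 0. ATTCCAC was singled out in these same libraries, and the lists were chosen with results known, so these values are no independent evidence. Whether the heptamer has a part in these differences was not tested.

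The genes beside PGD on its chromosome did not share its size of difference. In the RefSeq order, the 5 tested genes on one side were CTNNBIP1, LZIC, NMNAT1, UBE4B and KIF1B, and those on the other side were CENPS, CENPS-CORT, DFFA, PEX14 and TARDBP. CTNNBIP1, an inhibitor of beta-catenin, fell by 0.44 on the log2 scale (limma adjusted p = 0.00912), and UBE4B, a ubiquitin chain factor, fell by 0.27 (adjusted p = 0.00961). TARDBP, which codes for the RNA-binding protein TDP-43, rose by 0.27 (adjusted p = 0.00112). The other 7 did not pass the test. The nearest ones, KIF1B and CENPS, differed by −0.04 (adjusted p = 0.607) and −0.29 (adjusted p = 0.321), the latter on 29 to 60 reads per library. CENPS-CORT is a readthrough gene that overlaps CENPS, so the reads of these cannot be told apart.

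By the distance between centred log2 profiles over the 6 samples, the 5 genes most like PGD included TRAF2 at a distance of 0.444, SELENON at 0.529, MT1F at 0.588 and PAX8 at 0.591. SELENON, a selenoprotein of the endoplasmic reticulum, was at 13.8, 13.2 and 13.6 FPKM in sh-NC and at 4.26, 4.44 and 4.85 FPKM in sh-TRAF2, with no overlap. The measure finds genes that fell by a like amount with little scatter. TRAF2 and PAX8 carry ATTCCAC in coding sequence or 3′UTR, and SELENON and MT1F do not in the transcripts examined. No other pathway gene was among the 5.

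Among 12 paralogues and side enzymes of the pathway, 11 were in the table and 8 were tested. Of these 2 were higher, 2 lower and 4 did not pass, beside 23.7% and 20.9% of all tested genes, with a median log2 difference of −0.09. PRPS1, which makes PRPP from ribose 5-phosphate for nucleotide synthesis, was at 25.4, 24.4 and 23.9 FPKM in sh-NC and rose to 44.3, 41.1 and 42.5 FPKM in sh-TRAF2. Its groups lay far apart, with a log2 difference of 0.79 (SE 0.045, limma adjusted p = 9.07e-06). The ratio of PRPS1 to PGD was thus 0.238 ± 0.0059 in sh-NC and 1.63 ± 0.0653 in sh-TRAF2 (SD, n = 3 each). PGM1, a phosphoglucomutase, fell by 0.46 (adjusted p = 0.00301), and PGM2, which acts on pentose phosphates, rose by 0.16 (adjusted p = 0.0127). The paralogues TKTL1, TKTL2 and RPEL1 did not pass the filter, and RPEL1 lay at 0.148 to 0.287 FPKM.

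The list for making nucleotides from ribose 5-phosphate or PRPP also holds later purine steps and partner proteins of PRPP synthetase. All 12 of its genes were tested, and 7 were higher, 1 lower and 4 did not pass, with a median log2 difference of 0.17. Among all tested genes 23.7% were higher and 20.9% lower. PPAT, the committing step of purine synthesis, rose from a mean of 29.8 to 39.3 FPKM (log2 difference 0.40, limma adjusted p = 3.48e-04). APRT, which salvages adenine, rose from 39.7 to 46.7 FPKM (0.23, adjusted p = 9.14e-04). PRPSAP2, a partner protein of PRPP synthetase, fell from 17.9 to 11.3 FPKM (−0.66, adjusted p = 5.02e-05) and was the single lower gene. The count of 8 that passed became 5 without sh-NC replicate 1 and 5 without sh-TRAF2 replicate 3.

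Of 11 tested enzymes outside the pathway that make NADPH or NADP+, 3 were higher, 3 lower and 5 did not pass, shares near the 23.7% and 20.9% of all tested genes. Their median log2 difference was −0.01. MTHFD2 and MTHFD1, folate enzymes of the mitochondria and the cytosol, rose from 164 to 209 FPKM (0.35, limma adjusted p = 7.64e-05) and from 59.4 to 68.7 FPKM (0.21, adjusted p = 0.0031). NNT, the transhydrogenase of the inner mitochondrial membrane, fell from 13.4 to 10.1 FPKM (−0.40, adjusted p = 2.22e-04).

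Of the glycolytic and regulatory genes that share intermediates with the pathway, 14 of 19 were tested, and 0 were higher, 3 lower and 11 did not pass, with a median log2 difference of −0.04. The share that was lower lay near the 20.9% of all tested genes, of which 23.7% were higher. PFKM, a phosphofructokinase, fell from 14.6, 16.1 and 15.5 FPKM in sh-NC to 8.06, 7.63 and 8.32 FPKM in sh-TRAF2 (−0.94, limma adjusted p = 1.18e-05). The hexokinase HKDC1 was the only listed gene outside the glioma markers past the fold threshold, at 4.80, 3.14 and 4.19 FPKM in sh-NC and 1.27, 2.07 and 2.03 FPKM in sh-TRAF2 (−1.14, SE 0.20, adjusted p = 0.00254). TIGAR, a phosphatase that favours flow into the pathway, fell by 0.30 (adjusted p = 0.0140), which became 0.0554 without sh-NC replicate 1. The count of 3 became 5 without sh-NC replicate 3. In the endoplasmic reticulum, 3 of the 7 hexose phosphate and NADPH genes listed beside H6PD were tested, and G6PC3 fell by 0.17 (adjusted p = 0.0123) while 2 did not pass.

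Of 14 regulators known to act on pathway genes, 2 were higher, 7 lower and 5 did not pass, beside 23.7% of all tested genes higher and 20.9% lower. Their median log2 difference was −0.12, and that of all tested genes was 0.02. NFE2L2 codes for NRF2, the activator of antioxidant genes that also acts on pathway genes. It was at 73.7, 67.6 and 72.6 FPKM in sh-NC and fell to 44.8, 44.6 and 44.7 FPKM in sh-TRAF2 (−0.67, SE 0.041, limma adjusted p = 1.23e-05). BACH1, a repressor that competes with NRF2 for its sites, rose by 0.34 (adjusted p = 0.00232).

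Of 12 textbook NRF2 targets outside the pathway, 1 was higher, 8 lower and 3 did not pass, where 23.7% of all tested genes were higher and 20.9% lower. The median log2 difference of these targets was −0.31. FTL, the ferritin light chain, fell from 4255 to 2266 FPKM (−0.91, limma adjusted p = 4.41e-06), and NQO1, a quinone reductase, fell from 239 to 139 FPKM (−0.78, adjusted p = 4.12e-05). FTH1, the ferritin heavy chain, fell from 4359 to 3272 FPKM (−0.41, adjusted p = 4.12e-05), and after quantile normalization its difference was −0.06 (adjusted p = 0.0882). ABCC1, an exporter of glutathione conjugates, was the single higher gene, at 0.50 (adjusted p = 3.08e-04).

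The promoters of the members were searched on both strands for TGACNNNGC, the core of the element that NRF2 and its small MAF partners bind, over the 250 bases before the RefSeq start (GRCh38.p14). PGD and RPE hold 1 match each and the other 5 members none, and 10.9% of 35116 promoters hold a match. The promoters of these genes are shown, with the match in capitals, since their differences lay far apart, at −1.98 and 0.13 on the log2 scale. The PGD window is chr1:10398814-10399063 on the plus strand, with the match on the minus strand 201 bases before the start. The RPE window is chr2:210002388-210002637 on the plus strand, with the match on the plus strand 151 bases before the start.
PGD: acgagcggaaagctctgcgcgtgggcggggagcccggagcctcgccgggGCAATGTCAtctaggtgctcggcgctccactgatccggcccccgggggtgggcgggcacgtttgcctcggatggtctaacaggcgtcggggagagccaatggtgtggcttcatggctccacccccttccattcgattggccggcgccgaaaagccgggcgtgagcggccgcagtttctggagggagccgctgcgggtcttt
RPE: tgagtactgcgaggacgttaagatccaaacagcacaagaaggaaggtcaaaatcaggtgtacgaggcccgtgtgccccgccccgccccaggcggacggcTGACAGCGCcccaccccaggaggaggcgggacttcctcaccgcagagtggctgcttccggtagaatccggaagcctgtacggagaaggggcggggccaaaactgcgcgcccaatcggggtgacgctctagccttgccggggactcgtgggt

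CACGTG and TATAAA were in none of the 7 windows. CCAAT occurred 2 times in the PGD window, and 1 time each in those of RPIA, RPE, TKT and TALDO1. Of all promoters, 32.0% hold it. Binding of a factor was not measured here.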

How the data were processed

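Per the labels and the study's methods, total RNA of U251 cells was extracted with TRIzol, and libraries were made and sequenced by a company. The submitters' processing notes name HISAT2, HTSeq, R 3.2.0 and DESeq2 without their order. Build, annotation and strand setting are not given in the sources used here. The authors deposited 1 table of FPKM values for 23002 genes in 6 samples, and all 6 columns carry a sample name. FPKM corrects for gene length and library depth, not for a shift in composition. The table's pathway annotation was also read: of 27 genes placed in the pentose phosphate pathway, 21 were tested, and 2 were higher and 8 lower with the adjusted p, where 23.7% of all tested genes were higher and 20.9% lower. Pathway members were not taken out of this count, so it is no independent evidence.

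Values were tested as log2(FPKM + 0.1) with limma 3.58.1 (lmFit and eBayes with trend, R 4.3.3), two-sided, for the 11870 genes whose mean over the 6 samples reached 0.5 FPKM, with Benjamini-Hochberg adjustment over all of them. Fold changes on this scale understate changes of low genes. The calling threshold was an adjusted p under 0.05, alone or with an absolute log2 difference of at least 1. Whole reads were recovered from the steps between values of each gene, and a count was returned for 100% of genes. For 2643 genes with reads in 1 sample only there is no such step, and their count was set to 1. With simulated reads, 97.45% of genes were recovered exactly. Precision at this depth is given by the counting errors beside PGD, which cover counting only. Sequences were matched to the 91.2% of tested genes with a GENCODE 29 transcript.

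The members and all gene lists were chosen with earlier results of these data known. Genes named are the 7 members, TRAF2, in each list those past the fold threshold and the 3 of smallest adjusted p, the 5 tested genes on either side of PGD, and the 5 with the nearest profile. A few genes that this rule names are not reported here. S100B, SNAP25, RPEL1, TKTL1 and TKTL2 were named for their low or stray levels, and ABCC1 as the single higher gene of its list, after their values were seen. Alternatives were other pseudocounts, filters, scalings, limma-voom on recovered reads, a replicate block and leaving out each sample. The fit was tested on simulated data.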

Additional observations from a re-analysis of the deposited data

How the results depend on the processing

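PGD kept a large negative difference in every alternative run, from −2.04 after quantile normalization to −1.94 with a pseudocount of 1. Over 15 alternatives TKT ran from −0.88 to −0.80, PGLS from −0.74 to −0.63, H6PD from −0.35 to −0.23, RPIA from 0.11 to 0.19, RPE from 0.09 to 0.17 and TALDO1 from −0.06 to 0.03, all on the log2 scale. Of the members, PGD, TKT and PGLS passed the adjusted p alone in all 15, H6PD in 13, RPIA in 2, RPE in 1 and TALDO1 in 0. Of 225 comparisons of 15 counts and main values, 214 kept their call or stayed close and 0 reversed. The number of genes past the fold threshold went from 117 higher and 87 lower to 46 and 41 with a pseudocount of 1, and to 239 and 174 by limma-voom, which tested 14130 genes. By limma-voom the glycolysis list held 5 genes that passed and the endoplasmic reticulum list 2. Without 1 replicate in turn, the glycolysis list held 2 to 5, the ribose list 5 to 7, the NADPH source list 4 to 6, the NADPH user list 10 to 14 and PGD ran from −1.99 to −1.97. Of 44 named genes, GFAP missed the threshold in 6 alternatives, FTH1 after quantile normalization and TIGAR without sh-NC replicate 1. Where no cause is shown by the fewer samples or genes of an alternative, the cause was not tested.

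In their deviations from group means, same-numbered samples correlated at −0.0812, 0.0722 and 0.0728, and differently numbered ones at −0.141 to 0.0673. Such deviations offset each other within a group of 3, so these values cannot show whether replicate numbers pair the samples. With a replicate block, 120 genes were called higher and 88 lower, 5451 passed the adjusted p alone, and PGD stood at −1.98. Depth did not limit the 7 pathway genes, the lowest of which had 959 reads in a library.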

Other observations

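Genes whose products spend NADPH were listed too, and all 17 were tested. Of these 4 were higher, 8 lower and 5 did not pass, beside 23.7% and 20.9% of all tested genes, with a median log2 difference of −0.17. TXNRD1, the cytosolic thioredoxin reductase, fell from 306 to 250 FPKM (−0.29, limma adjusted p = 2.46e-04). POR, which passes electrons to cytochrome P450 enzymes, fell from 17.8 to 13.9 FPKM (−0.36, adjusted p = 5.69e-04).

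Among the glioma markers, EGFR, a growth factor receptor, fell from 31.8 to 14.3 FPKM (−1.14, limma adjusted p = 2.23e-06), and NES, which codes for the intermediate filament nestin, rose from 5.35 to 11.7 FPKM (1.12, adjusted p = 1.91e-05). VIM rose by 0.35 (adjusted p = 6.87e-05), and GFAP rose by 1.11 (adjusted p = 0.0382) but missed the threshold in 6 of the alternatives. Of the 8 listed, 3 were higher, 1 lower, 3 did not pass and S100B was not tested. The single tested marker of other cells, CD68, differed by −0.02.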
